A study of Mus musculus with 2 samples.

Results

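The cells described here are the most deeply captured microglia of the wild-type (WT) library. They are the WT barcodes with at least 10000 unique molecular identifiers (UMIs, tags that count each captured transcript a single time) and at most 10% of UMIs from mitochondrial (mt-) genes. Of 3504 WT barcodes, 338 met these limits, out of 8807 barcodes in both libraries. They were set against 2163 WT cells of 2000 to 5000 UMIs, called reference cells, under the same mitochondrial limit. The choice of cells rests on the UMI count and the mitochondrial share, so neither is a finding, and no value below is a test.

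Brain microglia, sorted by flow cytometry, were sequenced as single cells on the 10x Genomics droplet platform in 2 libraries. Both came from female C57BL/6 mice aged 3 months, without treatment, and each was a pool of cells of 3 mice of 1 genotype, isolated without enzymes. The samples are titled WT and IRF8KO. For the latter the genotype entry reads WT, so it is called the library labelled IRF8KO, and the labels do not describe its Irf8 allele. Which cells of which mouse are in a pool is not given, cells of 1 pool are not replicates, and with 1 library per group no p-value or replicate error could be computed. Intervals in brackets are exact 95% intervals and cover counting error only, apart from those beside list medians. Beside a list median, the bracket runs from the median of the members' lower limits to the median of their upper limits. It is not a 95% interval of that median.

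Microglia are the resident macrophages of the brain and spinal cord, long-lived cells that survey the tissue, clear debris and sense injury through purine and fractalkine receptors. In droplet sequencing, the number of UMIs of a barcode depends both on how much RNA a cell holds and on how much of it was captured, and 2 cells in 1 droplet also give a deep barcode. To compare composition at equal depth, each cell was thinned at random to 2000 UMIs. Levels are given as CPM, a gene's UMIs scaled to a common total, and differences as the log2 ratio of the level in high-UMI cells to that in reference cells. Because 338 cells at 2000 UMIs sample rare transcripts thinly, each gene's mean share was also computed from the undiluted cells, as the mean over cells of the gene's fraction of that cell's UMIs.

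The high-UMI cells were 9.65% of the WT barcodes (8.69 to 10.7) and carried 42.4% of the library's 18706147 UMIs. Their median was 17266 UMIs, with quartiles of 12647 and 28739, and 140 of them had at least 20000. The deepest cell held 93350 UMIs, 31.3 times the median of 2980 in the reference cells. At full depth the median high-UMI cell had 4949 genes with a UMI and the median reference cell 1591. A total of 267 genes had a UMI in every high-UMI cell, and 5087 genes in at least 50% of them. In the library labelled IRF8KO, 187 of 5303 barcodes passed the same limits (3.53%, 3.05 to 4.06), after 27 neutrophil-like barcodes were left out, and they held 15.6% of its 19998075 UMIs. The libraries shared 5 barcode sequences, none of them among the high-UMI WT cells.

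**Figure D1:**
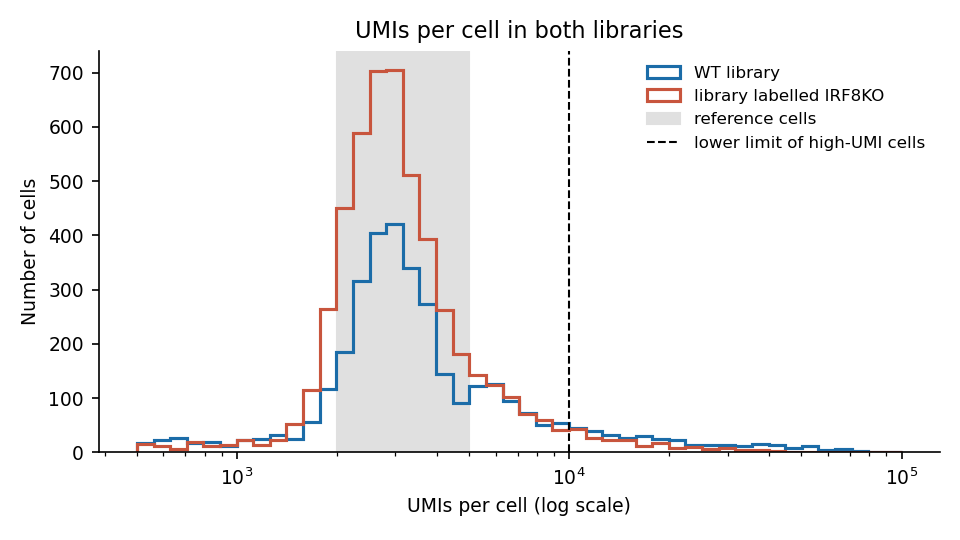
Number of cells (y axis) by UMIs per cell (x axis, log scale) in the WT library (blue) and the library labelled IRF8KO (red), with the reference range of 2000 to 5000 UMIs shaded and the lower limit of 10000 UMIs dashed. The WT cells form 1 main peak near the reference median of 2980 UMIs and a long right tail without a separate peak, which reaches 93350 UMIs.

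The limit of 10000 UMIs cuts a continuous tail. The 36 cells just inside it, of 10032 to 10946 UMIs, had a ribosomal protein share of 6.72%, a mitochondrial share of 2.04% and a median of 1228 genes after thinning. For the 50 cells just outside, of 9015 to 9995 UMIs, these values were 7.34%, 2.49% and 1232.5.

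The label was checked against microglia markers. The microglia markers reported here were abundant in the thinned high-UMI cells, from 503 CPM for Sall1, a transcription factor that holds microglia identity, to 6049 CPM for Cx3cr1, the fractalkine receptor. P2ry12, the purine receptor by which microglia sense extracellular nucleotides, was at 3694 CPM and at 3725 CPM in reference cells, a log2 ratio of -0.01 (-0.07 to 0.05). Every high-UMI cell held a UMI of P2ry12, Csf1r and Cx3cr1 after thinning. Tmem119, a surface protein used to mark microglia, was at 1491 and 1375 CPM, and 317 of the 338 cells held a UMI of it. The label was therefore kept.

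The 5 marker genes named for these cells were close to their level in reference cells. Dlgap1, a scaffold protein known from the postsynaptic density (GRCm38 chr17:69969073-70821413, plus strand), was at 198 CPM (166 to 235) against 163 (151 to 176), a log2 ratio of 0.28 (0.00 to 0.55). Its mean share gave 0.22. Cacna1a, the pore subunit of P/Q-type calcium channels (chr8:84388440-84640246, plus strand), was at 172 CPM (142 to 206) against 116 (106 to 127), a log2 ratio of 0.56 (0.26 to 0.86), and its mean share gave 0.34. Another random draw of UMIs put Cacna1a at 0.20 and thinning to 1000 UMIs at 0.09, so the size of its ratio is not fixed at this depth. None of these genes reached 2-fold in any of the measures.

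Rtn1, a reticulon of the endoplasmic reticulum (chr12:72211752-72409054, minus strand), was at 123 and 98.2 CPM, a log2 ratio of 0.32 (-0.04 to 0.66). Npnt, an extracellular matrix protein that binds integrins (chr3:132881745-132950291, minus strand), was at 56.2 and 43.2 CPM, a log2 ratio of 0.38 (-0.16 to 0.89). Both intervals include 0 at thinned depth. Summed at full depth, Npnt had 429 UMIs in high-UMI cells and 288 in reference cells, a log2 ratio of 0.32 (0.10 to 0.54), and Rtn1 had 927 and 642, a ratio of 0.27 (0.13 to 0.42). P3h2, a collagen prolyl hydroxylase (chr16:25959288-26105784, minus strand), was at 57.7 and 50.9 CPM, a log2 ratio of 0.18 (-0.35 to 0.68). It turned negative with another draw (-0.33) and after thinning to 1000 UMIs (-0.44), and its mean share gave 0.04. Col27a1, a fibrillar collagen chain named beside them (chr4:63214004-63334991, plus strand), was at 228 and 196 CPM, a log2 ratio of 0.21 (-0.04 to 0.46), and 0.31 by mean share. These 6 genes were named because of earlier results on these cells, so their common direction is a description.

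Single cells showed the same small differences. After thinning, 115 of 338 high-UMI cells and 583 of 2163 reference cells held a Dlgap1 UMI, with at most 3 and 5 UMIs in a cell. For Cacna1a the numbers were 99 of 338 and 438 of 2163 cells, for Rtn1 75 and 375, for Npnt 35 and 165, and for P3h2 38 and 209. The genes were thus spread over the library and not held by the deep cells alone. Dlgap1, P3h2 and Npnt had between 0 and 2 UMIs at full depth in the high-UMI and in the reference cells of the library labelled IRF8KO.

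Over all genes, the profile of the high-UMI cells was close to that of reference cells. Of 8806 genes with at least 10 CPM in either group, 134 were at least 2-fold higher (1.52%) and 139 at least 2-fold lower (1.58%) after thinning. Scaling by TMM factors, a robust normalisation of totals, gave 108 higher and 184 lower. By mean share, which uses all UMIs, 2 genes of 8657 were at least 2-fold higher (0.0231%) and 10 at least 2-fold lower (0.116%). The middle 90% of genes lay between -0.27 and 0.41 by mean share, around a median of 0.06. Above 0 were 5179 of the 8806 genes after thinning and 5436 of the 8657 by mean share. Counts of list members above 0, given below, are to be read beside these. The correlation of log2 CPM between the groups was 0.98 over these 8657 genes, which share library, pool and chemistry. Most of the genes past 2-fold after thinning thus have a smaller ratio when all UMIs are used.

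**Figure D2:**
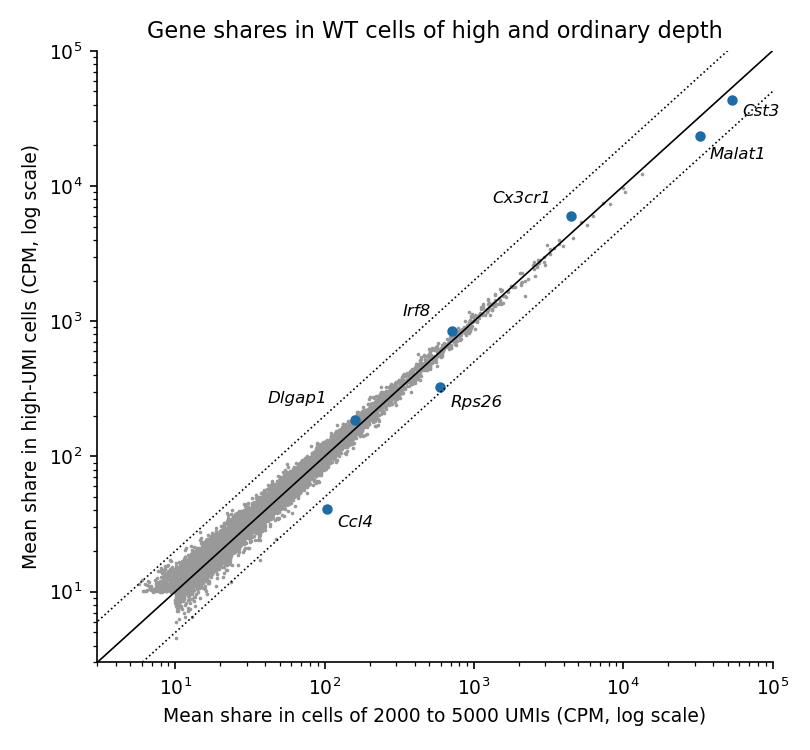
Mean share of each gene in high-UMI WT cells (y axis) against WT cells of 2000 to 5000 UMIs (x axis), both in CPM on log scales, with the solid line at equality and dotted lines at 2-fold. Cst3, Malat1, Rps26 and Ccl4 lie below the line of equality and Cx3cr1, Irf8 and Dlgap1 above it, and of the labelled genes Ccl4 alone lies beyond 2-fold.

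The 2 genes at least 2-fold higher by mean share were Nprl3, a subunit of the GATOR1 complex that restrains mTORC1, at 12.1 and 5.94 CPM, and Zfp335, a zinc finger transcription factor, at 11.5 and 5.70 CPM. Both were close to the minimum of 10 CPM and were named after their values were seen. Of the 10 genes at least 2-fold lower, 4 were haemoglobin genes and 1 was Ttr, and these 5 rest on 3 barcodes. Those are 2 reference barcodes with 1% or more haemoglobin UMIs, of which the fuller held 3176, and 1 with 542 of the 544 Ttr UMIs. No high-UMI cell reached 1% of either. The other 5 were Ccl4, Ccl5, Immp2l, Gm26669 and Gm26735.

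Among genes of at least 50 CPM, the 12 highest ratios after thinning ran from 0.85 to 1.23, with Ak1, an adenylate kinase, at the top (34 UMIs against 93). Their mean shares gave 0.12 to 0.67. Lrrc41, an adaptor of ubiquitin ligases, kept the highest of these by mean share (1.21 after thinning, 0.67 by mean share). Pcnt, the centrosome scaffold pericentrin, was at 1.08 after thinning and at 0.12 by mean share, and turned to -0.44 in another draw. At the low end, apart from Ttr and Ccl4, Pibf1, a centrosomal protein, was at -1.25 (18 UMIs against 274) and at -0.35 by mean share. Mrps16, a mitochondrial ribosomal protein, was at -1.19 and -0.24, and at 0.03 in another draw. The extremes of the thinned comparison are therefore genes with 16 to 64 UMIs in the high-UMI cells, apart from Ttr with 1.

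By mean share the highest genes above 50 CPM had more UMIs behind them, and this ordering was chosen after the values were seen. Cic, a transcriptional repressor of growth factor signalling, was at 88.2 CPM in high-UMI and 55.6 CPM in reference cells, a log2 ratio of 0.66, with 714 UMIs against 371 at full depth (0.69, 0.51 to 0.87). Znfx1, a helicase of antiviral defence, was at 83.7 and 56.5 CPM (0.57), and Spen, a large nuclear repressor needed for X inactivation, at 119 and 80.8 CPM (0.55). Ptk2b, a relative of focal adhesion kinase, was at 78.8 and 54.6 CPM (0.53). Phf21a, a subunit of a histone demethylase complex, was at 77.0 and 52.3 CPM (0.56). In the high-UMI cells of the library labelled IRF8KO, against that library's own reference cells, the mean-share ratios were 0.56 for Cic, 0.41 for Spen, 0.53 for Ptk2b and 0.42 for Phf21a, but 0.03 for Znfx1.

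The clearest difference in an abundant transcript was a lower level of Malat1, a long noncoding RNA held in nuclear speckles (chr19:5795690-5802672, minus strand). It made up 23263 CPM (22901 to 23630) of the thinned high-UMI cells and 32390 CPM (32220 to 32560) of the reference cells, a log2 ratio of -0.48 (-0.50 to -0.45). Per cell thinned to 2000 UMIs, high-UMI cells held a median of 46 Malat1 UMIs, with quartiles of 30 and 60 and a range of 3 to 107. Reference cells held a median of 63, with quartiles of 51 and 77. The ranges overlap, but 29.6% of the high-UMI cells lay below the 5th percentile of the reference cells, which is 34 UMIs, and 0.592% above their 95th.

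The Malat1 level followed depth within the high-UMI cells as well. Across cells of 2000 to 3000, 3000 to 5000, 5000 to 10000, 10000 to 20000 and at least 20000 UMIs, all thinned to 2000, it was 35223, 29546, 29229, 27205 and 18139 CPM. The step between the last 2 classes is the widest. Over the 338 high-UMI cells the rank correlation of the thinned Malat1 count with the cell's UMIs was -0.53. Its correlation with the ribosomal protein share of the same thinned cell was -0.56 and with the share from transcripts of at least 8 kb 0.53, parts of 1 total. The mean-share ratio of Malat1 in the library labelled IRF8KO was -0.30 and the correlation with UMIs was -0.23 over 187 high-UMI cells.

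Other nuclear RNAs varied in direction after thinning. Xist, the noncoding RNA that silences an X chromosome, was at 2814 and 2770 CPM (0.02, and 0.02 by mean share). Neat1, the core RNA of paraspeckles, was at 74.0 and 69.3 CPM, and Kcnq1ot1, an imprinted noncoding RNA, at 357 and 334 CPM. Tsix, which runs antisense to Xist, was at -0.70 and Gm42418, which overlaps ribosomal RNA sequence, at -0.44. Reads of these 2 genes cannot be assigned to them with certainty. The median over the 6 nuclear-retained RNAs above 10 CPM, of 9 listed, was -0.21 (-0.44 to -0.02), 3 of them above 0, and 0 of 6 passed 2-fold. By mean share 1 of 6 was above 0, with a median of -0.27. This median was negative under each of the 13 alternative settings.

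**Figure D3:**
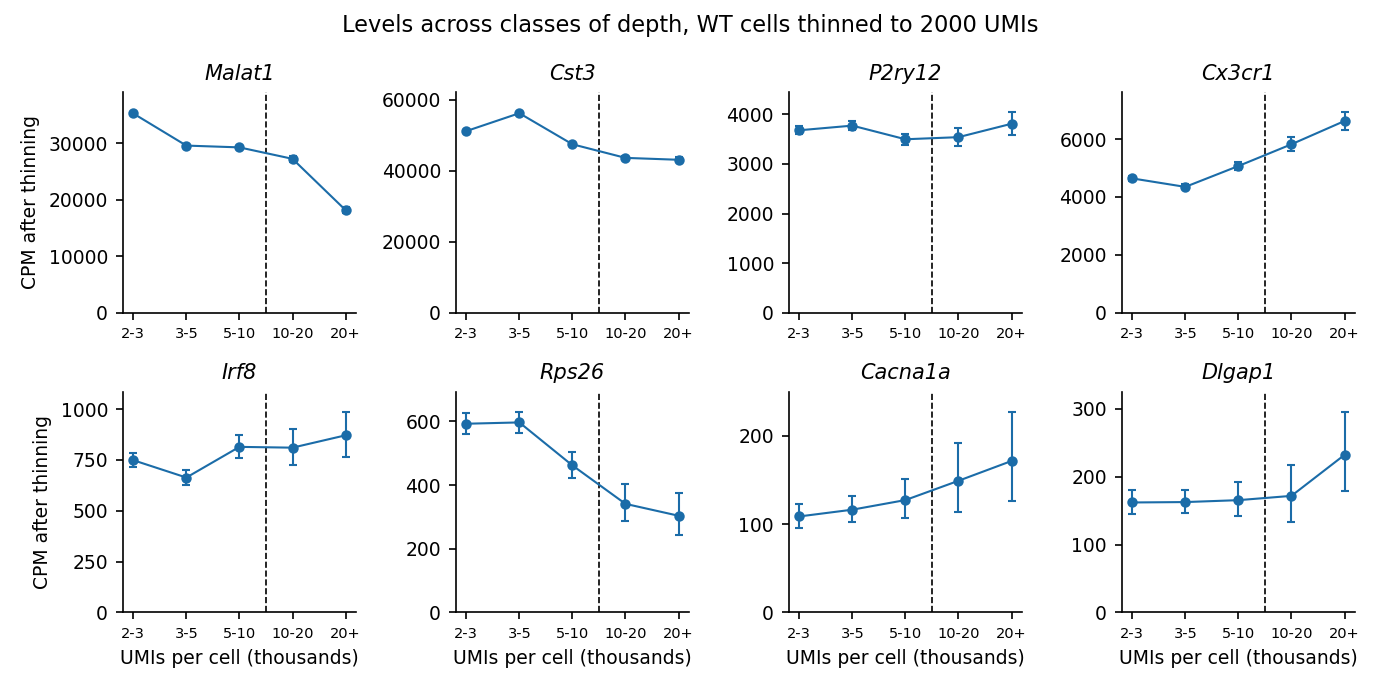
Level in CPM after thinning to 2000 UMIs (y axes, each from 0) in 5 classes of WT cells by UMIs per cell in units of 1000 (x axes), with points for the summed level, bars for exact 95% Poisson intervals and a dashed line at 10000 UMIs. Malat1 and Rps26 are lowest in the deepest class, at 18139 and 304 CPM, and Cx3cr1 is highest there, at 6625 CPM.

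Of the microglia identity genes, Cx3cr1 differed most among those with many UMIs. This fractalkine receptor (chr9:119901616-120069879, minus strand), by which microglia read a neuronal ligand, was at 6049 CPM (5865 to 6237) in high-UMI cells and 4518 (4455 to 4582) in reference cells, a log2 ratio of 0.42 (0.37 to 0.47). The median cell held 12 Cx3cr1 UMIs of 2000 against 9, and 13.9% of high-UMI cells lay above the 95th percentile of reference cells, with 0 below the 5th. By class of depth it was 4642, 4348, 5069, 5821 and 6625 CPM. Its mean-share ratio in the library labelled IRF8KO was 0.39.

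Cst3, the secreted protease inhibitor cystatin C and the most abundant transcript of these cells, was at 43263 CPM against 53596, a log2 ratio of -0.31 (-0.33 to -0.29). The median was 85 UMIs of 2000 in high-UMI and 105 in reference cells, with ranges that overlap. Ctss, the lysosomal protease cathepsin S, was at 5095 and 5674 CPM (-0.16, -0.21 to -0.10). Csf1r, the receptor on which microglia depend for survival, was at 3969 and 3743 CPM (0.08). Sall1 was at 503 and 450 CPM (0.16, -0.01 to 0.33). Over all 40 identity genes, 21 were above 0, the median was 0.01 (-0.12 to 0.14) and 0 passed 2-fold in either direction. Their summed share was 12.8% of UMIs in high-UMI cells and 14.0% in reference cells, of which Cst3 alone took 43263 and 53596 CPM.

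Irf8, the transcription factor named in the other library's title (chr8:120736358-120756694, plus strand), was at 870 CPM (801 to 943) in high-UMI and 718 CPM (693 to 744) in reference WT cells, a log2 ratio of 0.28 (0.15 to 0.40). In the library labelled IRF8KO its mean share was 780 CPM in high-UMI and 629 CPM in reference cells, a ratio of 0.31. Tags counted there need not lie in a deleted part, so this level does not check that label.

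By list median, genes of activated states were near their reference level. The disease-associated set, genes that microglia raise around plaques and damage, had 18 of 25 members above 10 CPM, with 9 above 0 and a median of -0.02 (-0.29 to 0.13). Apoe, the lipid carrier, was at 541 and 444 CPM (0.29), Ctsb, cathepsin B, at 1749 and 1530 CPM (0.19), Cd9, a tetraspanin, at 815 and 951 CPM (-0.22) and Lyz2, lysozyme, at 265 and 216 CPM (0.29). A larger share of high-UMI cells held an Apoe UMI after thinning, 162 of 338 against 588 of 2163 reference cells. For Lyz2 these were 134 and 658 cells. The fullest cell held 16 Apoe UMIs among high-UMI cells and 288 among reference cells. Spp1, Itgax, Cst7 and Gpnmb, defining genes of that state, had between 0 and 4 UMIs each in the 338 thinned cells. Capg, an actin capping protein, was past 2-fold lower at -1.16 after thinning but stood on 7 UMIs, and its mean share gave -0.35.

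Immediate early genes, which mark recent stimulation or stress of isolation, had 12 of 20 members above 10 CPM, 5 of them above 0, and a median of -0.02. Jun was at 339 and 300 CPM, Junb at 243 and 248, Jund at 249 and 225, and Btg2, an antiproliferative early gene, at 300.3 and 303 CPM. Fos had 1 UMI in the thinned high-UMI cells and 5 in the reference cells. Egr1 and Atf3, stress-induced transcription factors, were at -1.81 and -1.24 after thinning, on 2 and 8 UMIs, and at -0.25 and -0.74 by mean share. Egr1 was at -0.09 in another draw. For Klf6 the log2 ratio was 0.42, and 0.20 by mean share. Heat shock genes had a median of 0.03 over 11 of 14 members, with Hspa8, a constitutive chaperone, at 947 and 930 CPM and Hspa1a and Hspa1b, the stress-induced pair, at 2 UMIs each.

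Inflammatory cytokine and NF-kB feedback genes had a median of 0.01 over 14 of 22 members, 7 of them above 0. The 3 members farthest from 0 went both ways. Nfkbiz, a nuclear IkB protein, was at 28.1 and 14.3 CPM (0.97, 0.15 to 1.73), on 19 UMIs, and at 0.25 by mean share. Ccl4 and Ccl3, chemokines that attract leukocytes, were lower than in all reference cells combined. Ccl4 was at 47.3 CPM, or 32 UMIs, against 105 CPM, or 453 UMIs (-1.15, -1.71 to -0.63), and at -1.34 by mean share. Ccl3 was at 28.1 and 47.9 CPM (-0.77). Few cells carried these UMIs: 14 of 338 high-UMI and 46 of 2163 reference cells had any Ccl4, and 13 and 69 any Ccl3. In this draw the share of cells with Ccl4 was thus higher among high-UMI cells, although its level was lower. In each group 10 cells held most of the Ccl4 UMIs, 87.5% and 87.2%. The thinned level moves with the draw, since a separate draw for the classes of depth held 10 and 8 Ccl4 UMIs in the high-UMI cells where this one held 32, so the interval understates the error. At full depth they held 344 Ccl4 UMIs against 846 in reference cells (-1.55). Against reference cells of 2000 to 3000 UMIs alone the ratios turned to 1.32 for Ccl4 and 0.75 for Ccl3. By mean share Ccl4 was at 19.6, 193, 55.4, 43.9 and 37.5 CPM in the classes in order of depth, highest at 3000 to 5000 UMIs. Il1b, Tnf and Il6 had 4, 4 and 9 UMIs in the high-UMI cells, and Nfkbia, the inhibitor induced by NF-kB itself, was at 90.2 and 91.1 CPM.

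Interferon response genes had a median of -0.01 over 13 of 30 members, 6 above 0. Gbp7, a guanylate-binding protein, was at 135 and 98.2 CPM (0.45), Ifit3 at 5.92 and 11.8 CPM (-0.99) and Slfn2, a schlafen family member, at -0.89 (-0.31 by mean share, and -0.97 to -0.26 over the alternative settings). The antigen presentation genes of MHC class II had a median of 0.07 over 4 of 8 members in WT cells, with Cd74, the invariant chain, at 34.0 and 32.6 CPM. Their median was -0.16 by mean share, so the sign depends on the measure. In the library labelled IRF8KO the same list had a median of 1.83 (1.43 to 2.21) over 7 members, 4 of them at least 2-fold higher, beside 4.29% of all 8690 genes there. Few cells carried it: with cells thinned to 10000 UMIs, 10 of the 187 held 96.0% of H2-Aa, 94.5% of H2-Ab1, 95.1% of H2-Eb1 and 79.3% of Cd74 UMIs, and the median cell thinned to 2000 UMIs held 0 UMIs of the list. In the high-UMI WT cells 0 members were at least 2-fold higher. The gap between the libraries was not tested. Cell cycle genes had a median of -0.09 over 8 of 22 members, and Mki67 and Top2a, markers of dividing cells, had 4 and 2 UMIs.

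**Figure D4:**
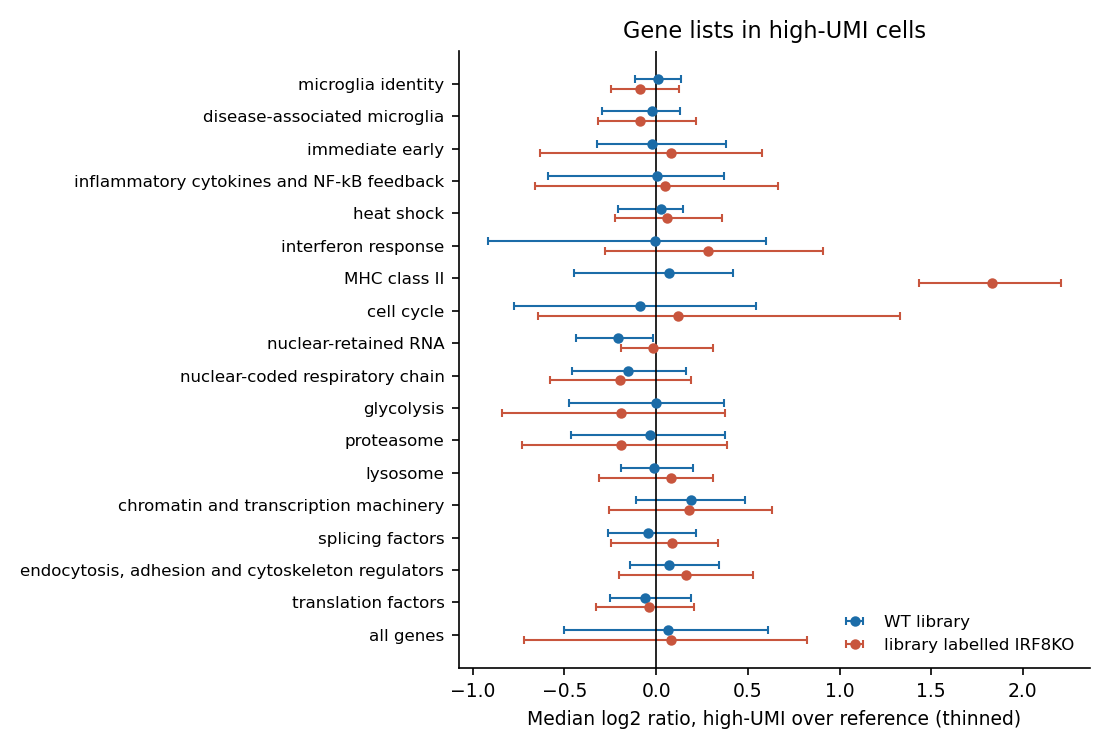
Median log2 ratio of high-UMI over reference cells after thinning (x axis) for each of 17 program lists and all genes (y axis), in the WT library (blue) and the library labelled IRF8KO (red). Bars run from the median of the members' lower limits to the median of their upper limits, and in WT these lists lie between -0.21 and 0.19, beside 0.07 for all genes.

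Lists of short and of long transcripts are given next, in order of length. Nuclear-coded respiratory chain genes, with a median longest coding transcript of 670.5 bases, had a median log2 ratio of -0.15 (-0.46 to 0.16), and 8 of 32 were above 0. By mean share 3 of 32 were above 0. Of all genes with transcripts under 1 kb, 36.1% were above 0 after thinning and 27.4% by mean share. Ndufa6, a subunit of complex I, was at 94.7 and 137 CPM (-0.54, and -0.41 by mean share), Uqcr11, of complex III, at 82.8 and 123 CPM (-0.58 and -0.32), and Cox8a, of complex IV, at 342 and 381 CPM (-0.16 and -0.18). Atp5b, the catalytic subunit of ATP synthase and a longer transcript of 1916 bases, was at 222 and 198 CPM (0.16 and 0.18).

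Chromatin and transcription machinery genes, with a median of 9494.5 bases, had a median of 0.19 (-0.11 to 0.48), and 22 of 26 were above 0. By mean share 24 of 26 were above 0. Of all genes with transcripts of at least 8 kb, 74.2% were above 0 after thinning and 84.0% by mean share. Arid1a, a subunit of SWI/SNF remodelling complexes, was at 325 and 253 CPM (0.37, and 0.36 by mean share), Kmt2c, a histone H3 lysine methyltransferase, at 194 and 150 CPM (0.37 and 0.24), Chd4, a helicase of the NuRD complex, at 212 and 164 CPM (0.37 and 0.32), and Polr2a, the main subunit of RNA polymerase II, at 82.8 and 66.1 CPM (0.33 and 0.33). Endocytosis, adhesion and cytoskeleton regulators, at 7054 bases, had a median of 0.07, 23 of 29 above 0, and 0.14 by mean share. Inpp5d, the phosphatase SHIP1, was at 642 and 498 CPM (0.37 and 0.31), Lrp1, an endocytic receptor, at 404 and 336 CPM (0.26 and 0.26) and Myh9, nonmuscle myosin, at 263 and 218 CPM (0.27 and 0.33). No member of these 3 lists passed 2-fold, and over all genes the median was 0.07. Under TMM scaling the endocytosis list turned to -0.02, while the other 2 kept their signs under all 13 settings, from -0.24 to -0.03 and from 0.10 to 0.25.

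After thinning, the medians of the remaining lists stayed within 0.06 of 0. Lysosome genes had a median of -0.01 over 23 of 24 members, with Lgmn, the protease legumain, at 3200 and 3232 CPM and Psap, prosaposin, at 2327 and 2018 CPM (0.21). Translation factors had a median of -0.06 over 23, with Eif2s2, a subunit of the initiator tRNA carrier, at 155 and 228 CPM (-0.55, and -0.43 by mean share) and Eef2, the translocation factor, at 509 and 431 CPM (0.24). Splicing factors had -0.04 over 24, proteasome subunits -0.03 over 21 and glycolysis genes 0.00 over 13 of 14. By mean share, proteasome subunits, with a median transcript of 1239 bases, were at -0.08, and 5 of 21 were above 0. The medians of the other lists of this paragraph lay between -0.04 and 0.04 by mean share. Gapdh, of glycolysis, was at 362 and 363 CPM.

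Over all genes, transcript length ran with the ratio. Grouped by the longest coding transcript in the annotation, median mean-share ratios were -0.10 for 434 genes under 1 kb, -0.03 for 1645 genes of 1 to 2 kb, 0.07 for 3341 of 2 to 4 kb, 0.12 for 1828 of 4 to 6 kb, 0.15 for 723 of 6 to 8 kb and 0.16 for 495 of at least 8 kb. Of the shortest class 27.4% lay above 0, and of the longest 84.0%. The rank correlation with transcript length was 0.36 across 8466 genes, and 0.46 across the 3948 genes of at least 50 CPM. Genes are not independent of each other. The differences are small: the interquartile range of the shortest class was -0.18 to 0.01 and of the longest 0.06 to 0.25. With TMM factors the median over all thinned WT ratios shifted by -0.09, from 0.07 to -0.02. The point at which the sign turns thus depends on the scaling, while the order of the classes, which all shift alike, does not. It depends on the measure for the longest: after thinning the classes of 6 to 8 kb and of at least 8 kb were at 0.16 and 0.15.

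**Figure D5:**
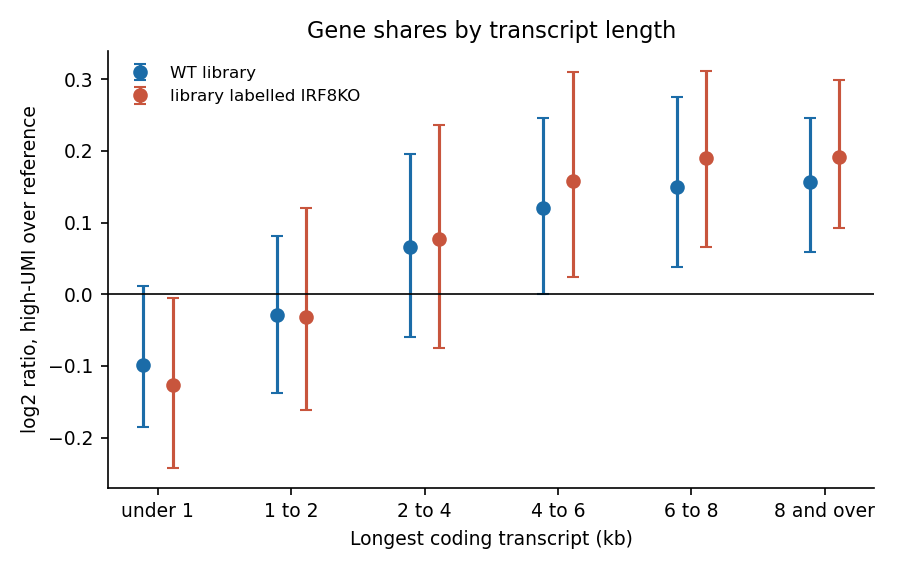
Median log2 ratio of mean shares, high-UMI over reference cells (y axis), by the longest coding transcript in kb (x axis), with bars from the lower to the upper quartile of genes, for the WT library (blue) and the library labelled IRF8KO (red). In WT the medians go from -0.10 under 1 kb to 0.16 at 8 kb and over, and in the other library from -0.13 to 0.19.

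The span of a gene on the chromosome, introns included, ran only weakly with the ratio among genes of like transcript length. Genes with a span over 200 kb had a median of 0.11 by mean share (323 genes), those of 50 to 200 kb 0.11, those of 10 to 50 kb 0.06 and those under 10 kb 0.00, and the rank correlation with span was 0.18 over 8643 genes. Within transcripts under 2 kb, of 2 to 4 kb and over 4 kb, however, the correlation of the ratio with span was -0.01, -0.03 and 0.02. Among genes of at least 50 CPM these correlations were 0.04, 0.02 and 0.06, and 0.03, 0.08 and 0.11 in the library labelled IRF8KO. The level of a gene moved with its ratio as well: the correlation with the level in reference cells was -0.15, and that with transcript length was 0.31 among genes of 10 to 50 CPM, 0.46 at 50 to 200 CPM and 0.48 above 200 CPM. Dlgap1, with a span of 852341 bases, and Cacna1a, with 251807, also have long transcripts, of 7173 and 7926 bases.

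Per cell, transcripts of at least 8 kb made up a median of 6.4% of thinned UMIs in high-UMI cells (quartiles 5.70 and 6.94, range 2.75 to 8.90) and 5.70% in reference cells (5.05 and 6.30). The groups overlap widely, with 12.4% of high-UMI cells above the 95th percentile of reference cells and 2.37% below the 5th. By class of depth the share was 5.77%, 5.61%, 5.91%, 6.35% and 6.15%, so it was no higher above 20000 UMIs than at 10000 to 20000. Within the 338 high-UMI cells it had a rank correlation of -0.02 with UMIs. Coding transcripts under 1 kb, ribosomal protein genes left out, made up 10.8%, 11.7%, 10.9%, 9.64% and 9.79% in the same order.

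The library labelled IRF8KO, which shares no cell with the WT library, had the same order of length classes, from -0.13 under 1 kb to 0.19 at 8 kb and over, with a rank correlation of 0.38 over 8271 genes. Across 3184 genes of at least 50 CPM in both, mitochondrial genes left out, the mean-share ratios of the libraries had a rank correlation of 0.67, and of 0.61 over the 1023 genes among them with transcripts of 2 to 4 kb. These are correlations across genes of 2 libraries made by the same protocol. In that library 373 genes of 8690 were at least 2-fold higher after thinning (4.29%) and 267 lower (3.07%), or 281 and 353 under TMM scaling, which moved its median by -0.11. By mean share 43 of 8450 were higher (0.509%) and 5 lower (0.0592%). The gap between the libraries' counts was not tested.

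Ribosomal protein genes took 6.72% of UMIs in thinned high-UMI cells and 6.87% in reference cells, a log2 ratio of -0.03 (-0.05 to -0.02). Of 84 such genes above 10 CPM, 36 were above 0 by mean share, with a median of -0.02. Rps23 was highest at 0.22. Rps26 was lowest at -0.86 by mean share, at 329 and 596 CPM, against -0.50 for the next, and its level by class of depth was 593, 597, 462, 341 and 304 CPM. In the library labelled IRF8KO it was also the lowest, at -0.66 by mean share, against -0.34 for the next. Rps26 was singled out after its values were seen, and near-identical pseudogene copies make its count uncertain. After thinning, 163 of 338 high-UMI and 1431 of 2163 reference cells held an Rps26 UMI. The ribosomal share of single high-UMI cells was narrower than in reference cells: its quartiles were 5.85% and 7.45%, against 5.50% and 7.85%, with 0 cells below the 5th and 1 above the 95th percentile of the latter.

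The mitochondrial share was limited by the choice of cells in both groups. It was 2.09% after thinning in high-UMI and 2.21% in reference cells (-0.08, -0.10 to -0.05). No WT barcode of at least 10000 UMIs exceeded 10%, and the highest of the 338 reached 3.98%, so the limit removed none of them. By mean share, mt-Co3, a subunit of complex IV, was at 4147 and 4598 CPM (-0.15), and mt-Co2, of the same complex, at 2816 and 2692 CPM (0.07). The median number of genes per cell thinned to 2000 UMIs was 1242 in high-UMI cells (quartiles 1219 and 1261) and 1187 in reference cells (1152 and 1218), a difference of 55 genes.

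Signs of doublets were sought in scores and in markers of other cells. The doublet caller marked 0 of 3304 WT cells, a result at which the caller cannot be taken to have worked, so the scores are given as a description. Their median was 0.115 in high-UMI cells and 0.0940 in reference cells, and 4.44% of high-UMI cells lay above the 95th percentile of reference cells. A pair of microglia in 1 droplet shares 1 profile and would not be seen by marker genes. Whether such pairs are among the cells was not tested. Without the cells of the highest scores, the genes at least 2-fold apart were 134 higher and 151 lower.

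Most markers of other cell types had no UMI in the thinned high-UMI cells, but a few, Slc1a3 and Ighm above all, were well above 0. Of 15 neuron markers 12 had no UMI in the 338 thinned cells, and the list held 9 UMIs in all, 13.3 CPM against 6.01 CPM in reference cells. Of 13 monocyte and neutrophil markers 11 were at 0, with 3 UMIs in the list. Of 12 border macrophage markers, which stand for macrophages of the meninges and vessels, 10 were at 0, with 10 UMIs. The astrocyte list held 171 UMIs, of which 170 were of Slc1a3, a glutamate transporter, and 7 of 9 markers were at 0. The lymphocyte list held 227, of which 193 were of Ighm, the immunoglobulin mu chain, and 13 of 15 were at 0. The levels were 253 and 336 CPM, against 203 and 292 CPM in reference cells. Endothelium and mural cell markers were at 62.1 and 57.6 CPM, with 8 of 12 at 0.

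The oligodendrocyte lineage list was at 107 CPM in high-UMI and 103 CPM in reference cells, with 4 of 9 markers at 0. At full depth 63 high-UMI cells held at least 3 of these markers, more than for any other list, yet in the fullest of them the list took 0.0481% of UMIs. For no list of another cell type did a high-UMI cell exceed 0.0880%. The red blood cell list had 1 UMI in the thinned high-UMI cells.

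No cluster was made up of the high-UMI cells alone, but their share differed between the 2 largest clusters. When WT cells of at least 2000 UMIs were thinned and clustered together, 240 of the high-UMI cells (71.0%) were among 1729 cells of the largest cluster, where they made up 13.9% (12.3 to 15.6). Another 93 were among 1181 cells of the second (7.87%). A cluster of 53 cells led by Egr3 and Ccl4 held 3 of them (5.66%, 1.18 to 15.7). A cluster of 55 cells led by interferon response genes held 2 (3.64%, 0.44 to 12.5), and a cluster of 6 cells with haemoglobin and Ttr none. These intervals are wide and include the share of the second cluster, so no difference can be read from the small clusters. On the first 10 principal components, the median of the high-UMI cells stood at most 0.30 SD from that of the other cells. The first component took 0.40% of the variance and the tenth 0.17%, so these components describe little of it at this depth. The clusters were given no cell type names.

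Most genes varied among the high-UMI cells little beyond counting noise, which can hide spread in genes of few UMIs. With each cell thinned to 10000 UMIs, the Fano factor, the variance over the mean, which is 1 for counting noise alone, had a median of 1.04 over 6824 genes with a mean of at least 0.2 UMIs. It exceeded 2 for 29 genes (0.425%). Malat1 had the highest, 42.3, with a range of 34 to 497 UMIs per cell, followed by Cst3 at 19.9 (242 to 733). Apoe was at 15.4, with a median of 3 UMIs, 61 cells at 0 and up to 102 in a cell. Ccl4 was at 14.5, with 305 cells at 0 and 75.9% of its UMIs in 10 cells. Among identity genes, P2ry12 was at 1.76, with 15 to 71 UMIs in each cell, and Csf1r at 1.37. Both were above the 95th percentile of all genes (1.24), and Sall1 was at 1.14. Their means were 36.9, 39.6 and 5.62 UMIs. At equal relative spread the Fano factor rises with the mean, so these values do not rank genes of unlike level by relative variation. For comparison, in the library labelled IRF8KO the Fano factor exceeded 2 for 125 of 6394 genes (1.95%).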

How the data were processed

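Droplet libraries of sorted microglia, 1 WT and 1 labelled IRF8KO, were analysed from the authors' deposited UMI counts per gene and barcode. Software version 3.1.0 and matrix format version 2 were used, per the file headers. Per the submitters' processing notes, Cell Ranger 3.1, bcl2fastq and Scanpy were used with build mm10. Which annotation and cell calling were applied was not given in the sources used here. A SMART-Seq kit, which is not a droplet method, is also named in the protocol, and the values have the form of droplet counts. The lowest deposited barcode held 500 UMIs (WT) or 501, so barcodes had been selected earlier.

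Groups came from sample titles. Each cell was thinned to 2000 UMIs without replacement with a fixed seed, giving 676000 UMIs in high-UMI and 4326000 in reference WT cells. Log2 ratios have exact conditional binomial intervals, levels exact Poisson and shares Clopper-Pearson intervals. For a count of 0 a floor of 3 counts was used in the thinned and summed comparisons. The setting with no minimum level took all genes with a UMI in both groups, also those of few UMIs. A gene was counted at an absolute log2 ratio of 1 with at least 10 CPM in either group. Gene positions and transcript lengths came from GENCODE M21 (GRCm38, the same assembly as mm10), with 31011 of 31053 features matched and 21825 with a coding transcript. In the library labelled IRF8KO, cells with at least 1% of UMIs from 6 neutrophil genes were left out. In scanpy 1.11.5, doublet scores were computed on cells with at least 1000 UMIs and 500 genes, and Leiden clusters (2000 variable genes, 30 components, 15 neighbours, resolution 0.5) on WT cells with at least 2000 UMIs, all with at most 10% mitochondrial UMIs. TMM factors were computed in edgeR 4.0.16. Settings that leave out cells kept the draw of the remaining cells. The ratio script was tested on simulated data.

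Genes to name were the 6 of the selection, Irf8, the 12 highest and 12 lowest ratios among genes of at least 50 CPM without mt-, Rps, Rpl and haemoglobin genes, and the 3 members of each of 17 program lists farthest from 0. Those not printed are covered by counts and ranges. Other genes named are list members, markers or chosen after their values were seen, as are the transcript length classes, the mean-share ordering and the variation at 10000 UMIs. The cells, the lists and the 8 lists of other cell types were chosen with earlier results of these data known. Some genes are not reported here.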

Additional observations from a re-analysis of the deposited data

How the results depend on the processing

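No paired analysis was possible because each group is 1 library and no replicate numbers are given. Each alternative changed 1 choice, those by another seed or depth of thinning with a new draw, and the exclusion of barcodes with at least 1% haemoglobin or Ttr UMIs was added after the data were seen. Counts of genes at least 2-fold higher and lower, 134 and 139, became 317 and 322 when cells were thinned to 1000 UMIs, 2 and 10 by mean share, 3 and 11 with UMIs summed over cells, 225 and 264 from 15000 UMIs, 782 and 402 with no minimum level, and 5 and 7 at a minimum of 50 CPM. The ribosomal ratio turned to 0.041 with summed UMIs and 0.0048 from 15000 UMIs. The mitochondrial ratio was -0.047 in another draw, -0.11 summed, 0.011 against cells of 2000 to 3000 UMIs and -0.048 under a 5% mitochondrial limit. The difference in genes per cell was 26 at 1000 UMIs, and 5.94% of barcodes had 15000 UMIs. Single genes past 2-fold reversed: Pcnt to -0.44 and Mrps16 to 0.028 in another draw, Ak1 to -0.010 and Hk1 to 0.64 at 1000 UMIs, Hk1 also to 0.037 by mean share, and Ccl4 to 1.32 and Egr1 to 0.13 against cells of 2000 to 3000 UMIs. Of 79 named genes, 28 had another sign in at least 1 setting. The causes were not tested. Of 18 list medians, 5 kept 1 sign under all 13 settings. Depth limits the thinned comparison: at 10 CPM a gene has few UMIs in 676000, and single-gene ratios there move with the draw.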
